A study of Homo sapiens with 18 samples.

Results

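HK-2 cells exposed to CsA for 24 hours were compared with HK-2 cells given the control vehicle for the same time. The 6 arrays of this comparison were chosen by title from the 18 arrays of the series, 3 with CsA and 3 controls, and were paired by their biological replicate number. The labels describe HK-2 as immortalized epithelial cells of the human proximal tubule. All 6 cultures came from one laboratory (lab 3) and grew without serum in a DMEM and Ham's F12 medium with EGF, hydrocortisone, insulin, transferrin and selenite, so the controls carried these hormones too. The cells were treated near confluence, 24 hours after seeding. The labels give neither the dose of CsA nor the name of the vehicle. The other 12 arrays hold the same treatment and its controls at 12 and 48 hours. Of the genes on the array, 10717 were tested, each through its brightest probe set and with a highest group mean of at least 4 on the deposited log2 scale. Differences are given as CsA minus control on that scale, where 1 unit is a 2-fold change. A single immortalized line stands for the tubule here. The labels call the replicates biological without naming separate cultures or passages, so p-values measure only the spread between the samples of this series.

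CsA is the usual abbreviation of cyclosporin A, although the labels do not spell it out. This drug, given to suppress immune rejection, acts by binding cyclophilins, and the complex blocks the phosphatase calcineurin. Its use is limited by toxicity to the kidney, where the proximal tubule is one of the affected segments. Cells under amino acid or endoplasmic reticulum (ER) stress phosphorylate the translation factor eIF2, which favours translation of the transcription factor ATF4 and transcription of its target genes. The unfolded protein response, through IRE1, XBP1 and ATF6, raises ER chaperones and the machinery of protein secretion.

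The 6 arrays had medians of 2.87 to 2.91 over all probe sets, and 38.4% to 38.6% of probe sets lay at 4 or more. Of 24 measured proximal tubule markers, 7 reached 4 on any array of 24 hours, among them the ectopeptidase DPP4, the transcription factor PAX8 and the bicarbonate carrier SLC4A4. The megalin gene LRP2, CUBN, AQP1, SLC34A1 and SLC22A6 stayed below 4 on every one of these arrays, so the label rests on a minority of its markers. None of 8 measured leukocyte markers reached 4, and 1 of 10 endothelial, 4 of 10 fibroblast, 2 of 9 distal nephron and 4 of 6 podocyte markers did. The podocyte genes NPHS1 and WT1 stayed below 4. The cultures of replicate 3 stood apart: across genes, the SD of the difference between replicates 1 and 2 was 0.256 in the controls, against 0.752 and 0.796 for either of them and replicate 3. With CsA the SDs were 0.306, 0.695 and 0.75. The lipocalin gene LCN2, for example, was 2.76 and 3.48 in controls 1 and 2 and 11.06 in control 3. The pairing removes such a constant offset, and its part in the differences was not tested. RNA quality probes differed little: the 3' minus 5' signal of ACTB was higher by 0.0178 with CsA (exact permutation p = 0.75, two-sided, n = 3 pairs) and that of GAPDH lower, at -0.0324 (exact permutation p = 0.5). The smallest p that 3 pairs allow is 0.25.

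At 24 hours the cystine transporter gene SLC7A11 was the single gene past the test over all genes (limma with the replicate number as a block, Benjamini-Hochberg adjusted p under 0.05). That is 0.00933% of the genes tested. At an unadjusted p under 0.05, 1009 genes (9.41%) differed, 506 higher (4.72%) and 503 lower (4.69%). The direction was shared by all 3 pairs for 2359 higher genes (22%) and 2495 lower genes (23.3%). All 3 CsA arrays lay above all 3 controls for 490 genes (4.57%) and below them for 549 (5.12%). The median difference over all genes was -0.01, and 48% of genes were positive and 52% negative. Because each time had its own pairs, the fit was also run with every pair of one time and number as a block of its own, which called 138 genes (1.29%), 78 higher (0.728%) and 60 lower (0.56%). Without any block limma called 0 genes, with 207 higher (1.93%) and 199 lower (1.86%) at an unadjusted p under 0.05 and no adjusted p below 0.122. Among the genes named for the largest differences, which had to share a sign in all 3 pairs and an unadjusted p under 0.05, the next in size were INHBE and ATF3, both higher, and TXNIP, which was lower. Below, "the pairwise fit" is the fit with a block per pair, and "rose" is kept for the gene past the main test. Counts within a list are to be read against these shares of all genes.

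SLC7A11, whose product imports cystine in exchange for glutamate, measured 7.64, 10.08 and 7.13 with CsA and 4.34, 5.45 and 4.05 in the controls. All 3 CsA arrays lay above all 3 controls, and the lowest CsA value exceeded the highest control. The within-pair differences were 3.30, 4.63 and 3.08, so pair 2 showed the largest rise and pairs 1 and 3 were close to each other. SLC7A11 rose by 3.67 ± 0.41 (mean of 3 pairs ± SE of the main limma fit, adjusted p = 0.00691). Here and below, the SE and p of the main fit come from all arrays of the series. They include the spread at 12 and 48 hours and do not measure that of the 24 hour pairs alone. The pairwise fit used the same arrays. The adjusted p of SLC7A11 ran from 1.85e-05 without pair 2 to 0.156 when the 24 hour arrays were fitted alone. It was 0.122 without the block, 0.00138 in the pairwise fit, 0.124 without pair 1 and 0.0842 without control 1. Its 3 probe sets differed in size, at 3.67, 2.82 and 1.13, and their mean gave 2.54 with a limma adjusted p of 0.137. At 12 and 48 hours the mean differences of SLC7A11 were 0.50 and 0.51.

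The list of amino acid transporters holds SLC7A11, which had its largest difference. Of 14 tested, SLC7A11 included, 10 were higher on average, 5 in all 3 pairs, and the list median was 0.19. SLC3A2 encodes the heavy chain that partners SLC7A11 and SLC7A5. It measured 8.90, 9.91 and 8.79 with CsA and 8.23, 7.87 and 8.01 in controls, without overlap, and was higher by 1.16 ± 0.29 (limma adjusted p = 0.237, 0.0486 in the pairwise fit). SLC7A5, the light chain of the large neutral amino acid transporter, was 6.46, 9.12 and 7.47 with CsA and 5.88, 5.96 and 6.64 in controls. Here the first CsA array lay below the third control, and the difference of 1.52 ± 0.55 (limma adjusted p = 0.415, 0.106 in the pairwise fit) was made up of 0.57, 3.16 and 0.83 in pairs 1, 2 and 3. SLC38A1, a glutamine carrier, was higher by 0.34. Its relative SLC38A5 was lower in all 3 pairs, with a mean of -0.45.

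The stress transcription factors were the list with the highest median. Of 12 tested, 10 were higher on average and 9 in all 3 pairs, the median was 0.72, 7 had an unadjusted p under 0.05 upwards, and 5 were called in the pairwise fit. Over all genes, 22% were higher in all 3 pairs and 4.72% had an unadjusted p under 0.05 upwards. The pairwise fit called 0.728% of all genes as higher. ATF4 itself measured 12.64, 13.27 and 12.50 with CsA and 12.04, 12.12 and 11.79 in controls. The groups did not overlap, and the difference was 0.82 ± 0.14 (limma adjusted p = 0.0908, 0.0336 in the pairwise fit). DDIT3, which encodes the stress factor CHOP, was 9.03, 11.48 and 8.78 with CsA and 7.90, 8.43 and 7.19 in controls. It was higher in every pair, by 1.14, 3.05 and 1.60, with a mean of 1.93 ± 0.48 (limma adjusted p = 0.236, 0.0336 in the pairwise fit). ATF3, a transcription factor induced by many stresses, was 6.14, 8.26 and 7.69 with CsA and 4.11, 3.37 and 6.91 in controls. The second control lay below the filter level of 4, and the third overlapped the first CsA array. The ATF3 differences of 2.03, 4.89 and 0.78 averaged 2.57 ± 0.64 (limma adjusted p = 0.237, 0.0614 in the pairwise fit). Its other probe set gave a smaller difference, of 1.25. CREB3L2, an ER-bound factor of secretory cells, showed the opposite kind of spread, with 0.97, 1.19 and 1.28 in the 3 pairs and a mean of 1.15 ± 0.18 (limma adjusted p = 0.0908, 0.0331 in the pairwise fit). CEBPG and CEBPB, which dimerize with ATF4, were higher by 0.63 and 0.49 on average, and the AP-1 repressor JDP2 by 0.97. ATF5 was lower in all 3 pairs, with a mean of -0.47.

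**Figure D1:**
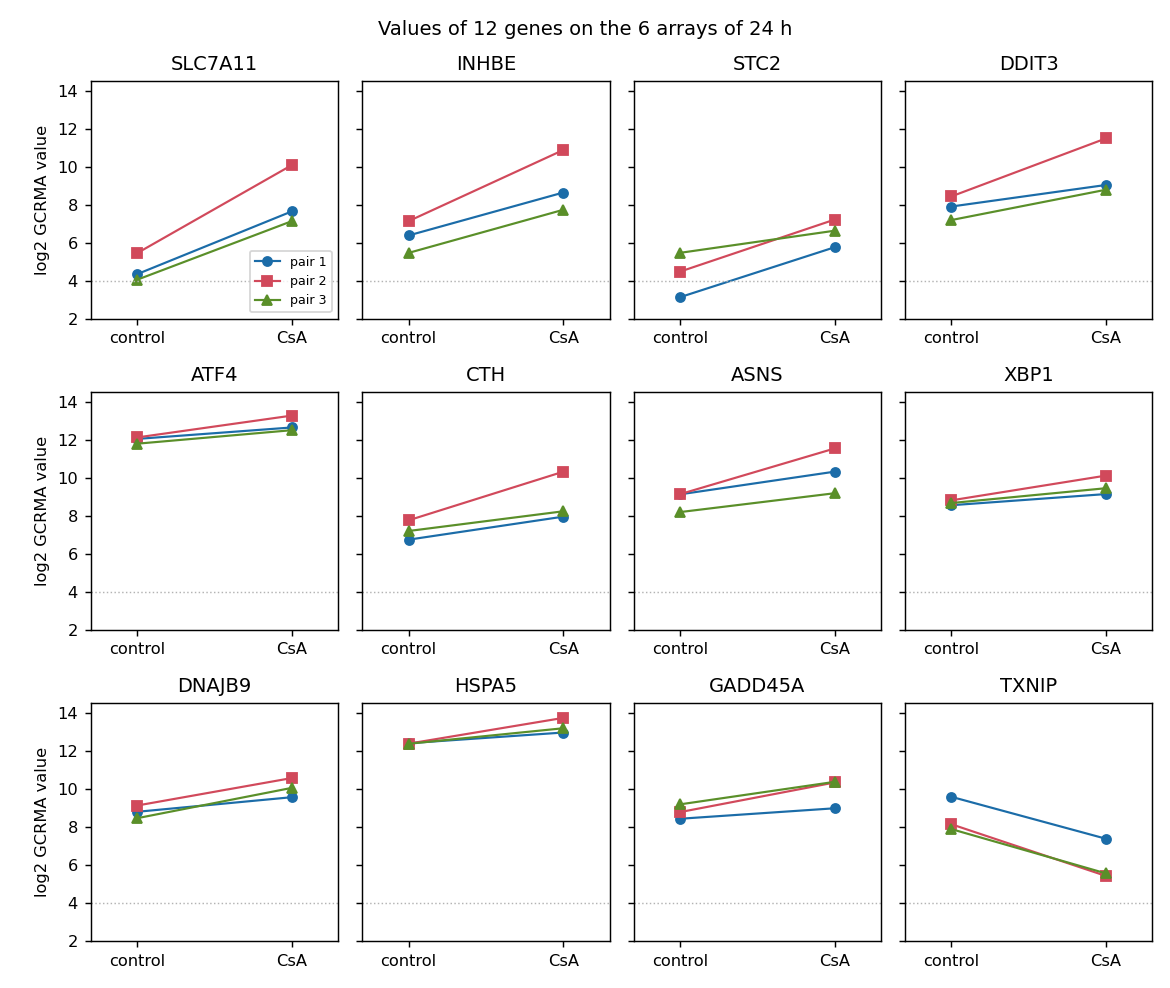
Deposited log2 value of named genes on each of the 6 arrays of 24 hours, with CsA and control arrays of one replicate number joined by a line (points are single arrays, 3 per group). For SLC7A11 the CsA points sit between 7.13 and 10.08 and the control points between 4.05 and 5.45.

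Among the stress sensors and regulators of translation, 13 of 17 were higher on average, 10 in all 3 pairs, with a median of 0.32. CHAC1, a glutathione-degrading enzyme induced by ATF4, was 3.81, 6.47 and 5.22 with CsA and 3.61, 3.61 and 3.60 in controls. The control values lie below the level of 4 used as a filter, and pair 1 differed by 0.20 while pairs 2 and 3 differed by 2.86 and 1.62. The mean was 1.56 ± 0.43 (limma adjusted p = 0.27, 0.095 in the pairwise fit). TRIB3, a pseudokinase that binds ATF4, was 11.60, 12.63 and 11.36 with CsA and 11.18, 11.31 and 10.42 in controls. It was higher by 0.90 ± 0.25 without overlap between the groups (limma adjusted p = 0.276, 0.0372 in the pairwise fit). ERN1, which encodes the sensor IRE1, was 6.66, 9.29 and 8.14 with CsA and 5.50, 6.89 and 7.75 in controls, an overlapping pair of ranges, and was higher by 1.32 ± 0.41 (limma adjusted p = 0.313, 0.0599 in the pairwise fit). The eIF2 phosphatase subunit PPP1R15A and the leucine sensor SESN2 were higher by 0.64 and 0.60, while EIF2S1 and the kinase gene EIF2AK2 were at -0.12 and -0.10.

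Enzymes of serine, asparagine and one-carbon metabolism were higher in 11 of 13 cases, 9 in all 3 pairs, with a median of 0.42, and 6 had an unadjusted p under 0.05 upwards. ASNS, asparagine synthetase, was 10.32, 11.54 and 9.18 with CsA and 9.12, 9.13 and 8.19 in controls. All 3 CsA values exceeded all controls, and the mean difference was 1.53 ± 0.48 (limma adjusted p = 0.316, 0.0486 in the pairwise fit). CTH, the cystathionine lyase that makes cysteine, was 7.95, 10.32 and 8.23 with CsA and 6.74, 7.76 and 7.20 in controls. It was higher by 1.21, 2.56 and 1.04 in the 3 pairs, with a mean of 1.60 ± 0.43 (limma adjusted p = 0.261, 0.0336 in the pairwise fit). ALDH1L2, a mitochondrial folate enzyme, was 5.87, 7.00 and 4.87 with CsA and 3.94, 3.98 and 3.82 in controls. Every control lay below the filter level of 4, and the difference was 2.00 ± 0.45 (limma adjusted p = 0.192, 0.052 in the pairwise fit). The other probe sets of ALDH1L2 gave 0.003 and 0.083, so the size rests on 1 probe set. MTHFD2, BCAT1 and PHGDH were higher by 0.98, 1.16 and 0.53, and the cytosolic folate enzyme MTHFD1 was at -0.07.

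The secreted factors of the list were higher in 8 of 9 cases, 5 in all 3 pairs, with a median of 0.36. INHBE, an activin subunit induced by ER stress, was 8.63, 10.87 and 7.73 with CsA and 6.38, 7.13 and 5.46 in controls. The groups did not overlap, the pairs differed by 2.26, 3.74 and 2.27, and the mean was 2.76 ± 0.46 (limma adjusted p = 0.0908, 0.0128 in the pairwise fit). STC2, a stanniocalcin glycoprotein, was 5.76, 7.21 and 6.63 with CsA and 3.13, 4.47 and 5.46 in controls. The first control lay below the filter level of 4. Pairs 1 and 2 differed by 2.63 and 2.74 and pair 3 by 1.17, with a mean of 2.18 ± 0.38 (limma adjusted p = 0.0908, 0.0336 in the pairwise fit). The other probe set of STC2 gave 1.26. GDF15 was higher by 0.88 and VEGFA by 0.74, the latter with -0.13 in pair 3. The cytokine genes IL6 and CXCL8 were at -0.02 and 0.07.

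The aminoacyl-tRNA synthetases, which charge tRNAs, were listed by compartment. Of 17 cytosolic synthetases, 12 were higher on average and 10 in all 3 pairs, with a median of 0.29, and 7 had an unadjusted p under 0.05 upwards. CARS1 was 9.69, 10.59 and 9.86 with CsA and 9.18, 9.15 and 9.49 in controls, without overlap, and was higher by 0.77 ± 0.17 (limma adjusted p = 0.192, 0.0576 in the pairwise fit). AARS1, YARS1 and WARS1 were higher by 0.76, 0.71 and 0.61, while HARS1 was at -0.26. Of 15 mitochondrial synthetases, 4 were higher on average and 1 in all 3 pairs, with a median of -0.04. AARS2 was lower by 0.46, 0.65 and 0.35 in the 3 pairs. Whether the lists differ from each other was not tested.

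Promoter stretches are shown for the genes above whose 250 bases before the gene start held the ATF4 element, searched as TGATGNAAN on both strands in the RefSeq promoters of GRCh38.p14. The element is in capitals, and each line reads 5' to 3' along the gene's strand. Of the 12 genes with the largest positive differences named by rule, 9 had a promoter, and 3 of these held the element, against 2.3% of the 8884 tested genes with a promoter and 3.13% of 35116 windows in all. SLC7A11 had no promoter in this set, so it was not searched. None of the 9 promoters of the 12 largest negative differences held the element. It was in 3 of 12 promoters of the stress transcription factors, 3 of 14 of the cytosolic synthetases, 2 of 9 of the serine, asparagine and one-carbon enzymes and 2 of 14 of the stress sensors. It was in 1 of 12 promoters of the amino acid transporters, 1 of 13 of the mitochondrial synthetases and none of 6 of the secreted factors.
ASNS (chr7:97872433-97872511, minus strand): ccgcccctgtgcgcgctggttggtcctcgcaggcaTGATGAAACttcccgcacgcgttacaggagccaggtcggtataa
ATF3 (chr1:212565181-212565259, plus strand): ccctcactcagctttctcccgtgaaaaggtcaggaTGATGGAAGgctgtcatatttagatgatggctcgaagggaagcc
CHAC1 (chr15:40953226-40953304, plus strand): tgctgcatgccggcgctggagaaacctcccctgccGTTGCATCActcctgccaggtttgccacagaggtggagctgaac
CEBPG (chr19:33374036-33374112, plus strand): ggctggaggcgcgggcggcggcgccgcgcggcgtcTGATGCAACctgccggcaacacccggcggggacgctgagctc
JDP2 (chr14:75427971-75428021, plus strand): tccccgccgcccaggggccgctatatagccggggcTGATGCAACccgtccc
BCAT1 (chr12:24949106-24949184, minus strand): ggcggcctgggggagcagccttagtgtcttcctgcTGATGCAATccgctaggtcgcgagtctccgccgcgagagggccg
AARS1 (chr16:70289651-70289729, minus strand): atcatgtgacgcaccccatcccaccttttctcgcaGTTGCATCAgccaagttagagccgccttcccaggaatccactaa
In AARS1 and CHAC1 the element reads on the opposite strand. In CHAC1 it lies 210 to 202 bases before the gene start, and in ASNS it lies 68 to 60 bases before it. A match is a description of these letters and not of binding.

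Genes of the ER folding machinery were also mostly higher on average. Of 18 ER lumen chaperones, 16 were higher on average and 14 in all 3 pairs. The list median was 0.44, and 0.36, 0.43 and 0.38 in pairs 1, 2 and 3. Of these chaperones, 6 had an unadjusted p under 0.05 upwards and 4 were called in the pairwise fit. Over all genes the shares upwards were 4.72% and 0.728%. HSPA5, the main ER chaperone (BiP), was 12.96, 13.73 and 13.19 with CsA and 12.40, 12.38 and 12.37 in controls. The controls had an SD of 0.02, all CsA values were above them, and the difference was 0.91 ± 0.19 (limma adjusted p = 0.145, 0.0336 in the pairwise fit). The other probe set of HSPA5 gave 1.38. DNAJB9, a cochaperone of HSPA5, was 9.56, 10.57 and 10.05 with CsA and 8.79, 9.12 and 8.46 in controls. It was higher by 1.27 ± 0.22 (limma adjusted p = 0.0908, 0.0336 in the pairwise fit), with pair 3 the largest at 1.60. DNAJC3, HYOU1 and HSP90B1 were higher by 0.66, 0.62 and 0.56, and the collagen chaperone SERPINH1 was lower in all 3 pairs, with a mean of -0.16. XBP1, the factor that IRE1 splices, was 9.14, 10.11 and 9.45 with CsA and 8.55, 8.81 and 8.67 in controls. It was higher by 0.89 ± 0.17 without overlap (limma adjusted p = 0.112, 0.0331 in the pairwise fit), a level that does not show the spliced form.

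Of 15 disulfide isomerases and ER oxidases, 13 were higher on average, with a median of 0.12. PDIA6 was 12.93, 12.90 and 12.75 with CsA and 12.41, 12.52 and 12.26 in controls, a difference of 0.46 ± 0.12 without overlap (limma adjusted p = 0.244, 0.0336 in the pairwise fit). PDIA4 was higher by 0.69, 0.80 and 0.80 in the 3 pairs, and the oxidase ERO1B by 0.22, 2.00 and 0.38. Of 17 translocon and signal peptidase genes, 13 were higher on average and 12 in all 3 pairs, with a median of 0.20 and SEC63 at 0.48 ± 0.10 (limma adjusted p = 0.152, 0.0408 in the pairwise fit). The oligosaccharyltransferase list, which glycosylates nascent proteins, was higher in 9 of 11 cases with a median of 0.15 and OSTC at 0.55. Coat and cargo receptor genes were higher in 19 of 23 cases with a median of 0.15, led by SEC24D, SEC23A and LMAN1 at 0.48, 0.37 and 0.42. ER-associated degradation was mixed, with 12 of 19 higher and a median of 0.09. HERPUD1, a membrane component of the degradation complex, was 10.94, 11.90 and 10.85 with CsA and 10.23, 10.51 and 9.83 in controls and was higher by 1.04 ± 0.22 (limma adjusted p = 0.145, 0.0336 in the pairwise fit). The extraction cofactor UFD1 was lower in all 3 pairs, with a mean of -0.47.

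The ER stress element, a split CCAAT box and CCACG motif searched on both strands, was found in 5 of 16 chaperone promoters (CALR, CANX, CRELD2, HSP90B1 and HSPA5), in 2 of 14 isomerase and oxidase promoters (ERO1B and PDIA6), and in XBP1. The share among tested genes with a promoter was 0.169%, and among all windows 0.074%. None of the 9 promoters of the largest positive differences held it, and none of the 16 chaperone promoters held the ATF4 element. HERPUD1 held the ATF4 element instead, and no gene of these lists held both. Stretches of 4 genes with values above are printed, from RefSeq on GRCh38.p14 and read along the gene's strand, with the ER stress element in capitals and, for HERPUD1, the ATF4 element.
HSPA5 (chr9:125241356-125241444, minus strand): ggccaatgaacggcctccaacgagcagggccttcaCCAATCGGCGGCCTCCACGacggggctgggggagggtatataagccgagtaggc
XBP1 (chr22:28800570-28800656, minus strand): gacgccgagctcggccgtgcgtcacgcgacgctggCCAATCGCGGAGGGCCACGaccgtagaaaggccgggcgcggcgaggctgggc
PDIA6 (chr2:10812818-10812906, minus strand): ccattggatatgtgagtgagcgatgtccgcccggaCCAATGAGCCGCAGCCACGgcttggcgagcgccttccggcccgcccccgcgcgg
HERPUD1 (chr16:56931930-56932008, plus strand): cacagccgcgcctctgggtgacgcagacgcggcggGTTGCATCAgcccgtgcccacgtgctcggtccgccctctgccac

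**Figure D2:**
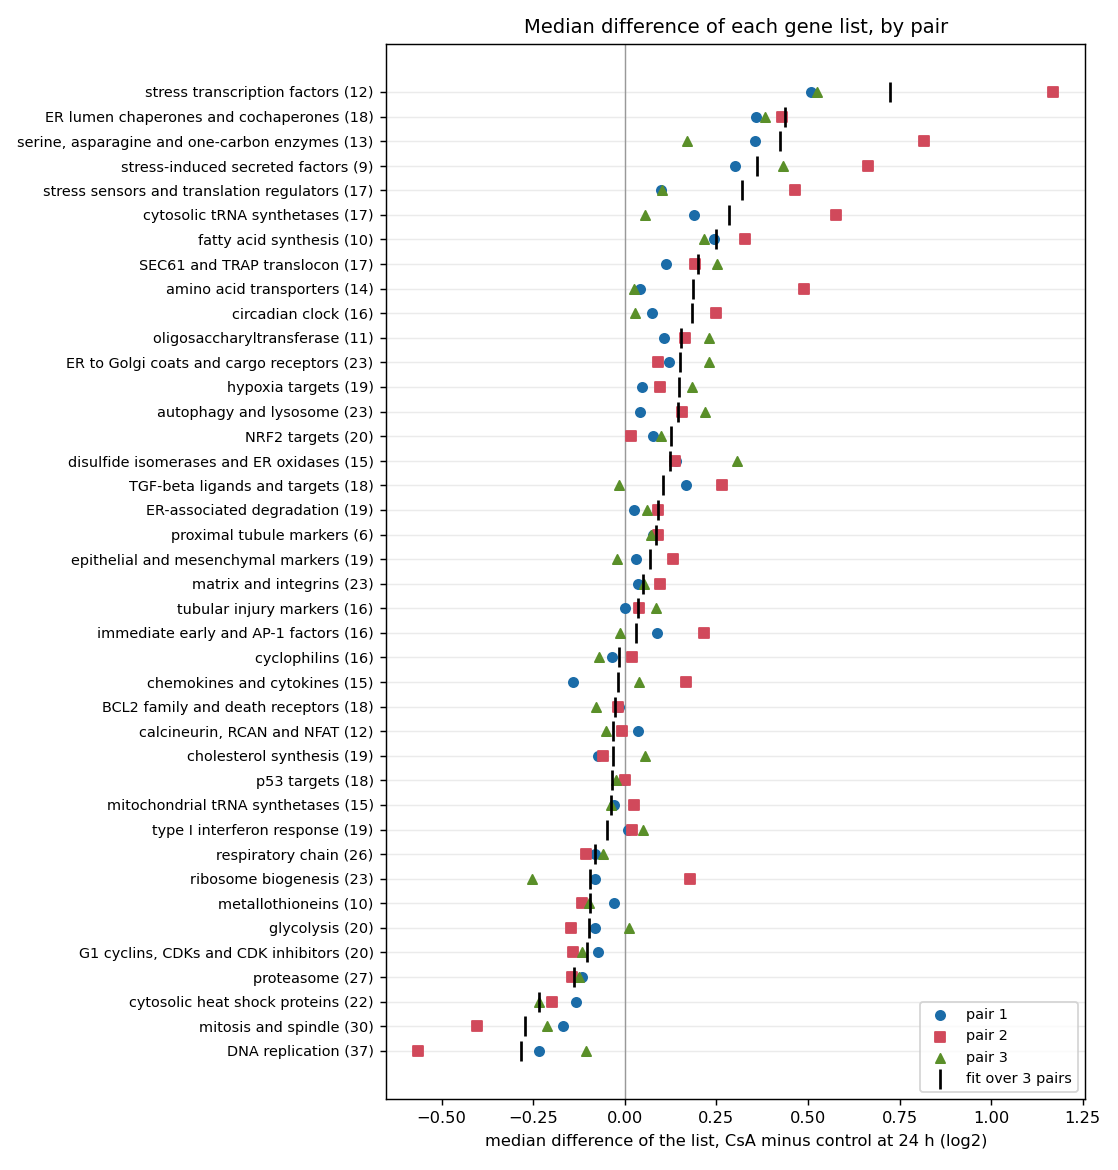
Median difference (CsA minus control, log2) of each gene list at 24 hours, one marker for each of pairs 1, 2 and 3. Stress transcription factors sit at 0.51, 1.17 and 0.52, ER lumen chaperones at 0.36, 0.43 and 0.38, and DNA replication genes at -0.23, -0.56 and -0.11.

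The direct partners of CsA were measured as well. Cyclophilins are the prolyl isomerases that bind the drug, and 8 of 16 were higher on average, with a median of -0.02. PPIA, the cytosolic cyclophilin A, was 14.94, 14.86 and 14.91 with CsA and 15.02, 14.97 and 14.96 in controls. All CsA values were below all controls, but the difference was -0.08 ± 0.07 (limma adjusted p = 0.803, 0.575 in the pairwise fit). PPIB, the ER cyclophilin B, was 12.41, 12.06 and 12.03 with CsA and 11.79, 11.37 and 11.24 in controls. It was higher by 0.62, 0.69 and 0.79 in the 3 pairs, with a mean of 0.70. The SE from the main fit over all times was 0.27 (limma adjusted p = 0.45, 0.0377 in the pairwise fit). PPIG, a nuclear member, was lower by 0.30, 0.29 and 0.32. PPIB is listed among the ER chaperones too.

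Calcineurin, RCAN and NFAT genes, the target phosphatase with its regulators and substrates, were higher in 5 of 12 cases, with a median of -0.03. RCAN1, a calcineurin inhibitor whose transcription NFAT drives, was 6.85, 7.06 and 7.40 with CsA and 7.41, 7.22 and 7.49 in controls. The ranges overlapped, and the difference was -0.27 ± 0.15 (limma adjusted p = 0.616, 0.222 in the pairwise fit). Its probe sets disagreed in sign, at -0.27 and 0.29, and their mean gave 0.01. NFATC3 was 7.40, 7.76 and 7.59 with CsA and 8.11, 8.25 and 7.76 in controls. It was lower in every pair, with a mean of -0.46 ± 0.16 (limma adjusted p = 0.386, 0.0894 in the pairwise fit), and the highest CsA value and the lowest control were both 7.76. The catalytic subunit PPP3CC was higher by 0.57 on average, with 0.41, 1.37 and -0.08 in the 3 pairs.

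Genes of DNA replication and mitosis were lower. Of 37 replication genes, 36 were lower on average and 21 in all 3 pairs, with a median of -0.28, and 6 had an unadjusted p under 0.05 downwards. Of all genes, 52% were lower on average, 23.3% in all 3 pairs, and 4.69% had such a p downwards. In pair 2 all 37 were lower, in pairs 1 and 3 the higher ones numbered 10 and 11. FEN1, the flap endonuclease, was 9.40, 8.58 and 10.10 with CsA and 10.00, 9.75 and 10.40 in controls. The groups overlapped, and the difference was -0.69 ± 0.22 (limma adjusted p = 0.316, 0.052 in the pairwise fit). The primase partner POLA2 and the helicase component GINS3 were at -0.78 and -0.65. Of 30 mitosis genes, all 30 were lower on average and 24 in all 3 pairs, with a median of -0.27. The kinases AURKB and AURKA were at -0.54 and -0.40 and the kinetochore motor CENPE at -0.54. None of these lists had a gene past the main test.

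The G1 list was mixed, with 8 of 20 higher and a median of -0.10, but it held the E-type cyclins, among the lowest differences of all. CCNE1, a cyclin E, was 6.72, 5.69 and 7.50 with CsA and 7.40, 7.12 and 8.02 in controls. It was lower in each pair, by 0.69, 1.43 and 0.52, with a mean of -0.88 ± 0.28 (limma adjusted p = 0.316, 0.0486 in the pairwise fit). CCNE2 was 8.45, 7.22 and 9.67 with CsA and 9.26, 9.14 and 10.13 in controls, a difference of -1.06 ± 0.40 (limma adjusted p = 0.439, 0.0556 in the pairwise fit). Replicate 3 was high in both groups for these cyclins. SKP2, the ubiquitin ligase subunit that degrades p27, was 9.06, 8.20 and 8.56 with CsA and 9.65, 9.56 and 9.33 in controls. Here the groups did not overlap, and the difference was -0.91 ± 0.33 (limma adjusted p = 0.411, 0.0336 in the pairwise fit). The CDK inhibitor CDKN1A was 8.91, 9.23 and 9.51 with CsA and 8.84, 8.79 and 8.92 in controls, higher by 0.37 ± 0.21 (limma adjusted p = 0.634, 0.093 in the pairwise fit). E2F2, a transcription factor of S-phase genes, was at -0.81, and the repressors RBL1 and RB1 were at 0.16 and 0.25.

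TXNIP had the most negative difference of the named genes. It encodes an arrestin that binds thioredoxin and limits glucose uptake. It was 7.37, 5.42 and 5.55 with CsA and 9.58, 8.14 and 7.88 in controls. All CsA values lay below all controls, and the pairs were even, at -2.21, -2.72 and -2.33. The mean was -2.42 ± 0.41 (limma adjusted p = 0.0908, 0.00152 in the pairwise fit and 0.892 without the block). Its 3 probe sets were all negative, at -2.95, -2.42 and -2.36. At 12 and 48 hours the mean differences were -0.63 and -0.32. CCL2, a monocyte chemokine, was 4.84, 4.73 and 3.91 with CsA and 5.71, 6.11 and 5.19 in controls, lower by 0.87, 1.38 and 1.28 in the 3 pairs (limma adjusted p = 0.398, 0.11 in the pairwise fit). The other largest negative differences by rule were EXO1, CBX2, AKR1C1, CDC25A, ERVMER34-1, SLFN12 and STEAP1B, from -0.98 for the exonuclease EXO1 to -0.85 for STEAP1B. AKR1C1, an aldo-keto reductase, was lower by 0.96, 1.50 and 0.28 in the 3 pairs. CBX2 reached the filter level of 4 in control 3 alone, at 5.51, and its pairs differed by -0.65, -0.19 and -1.93. Over all 10717 genes, 138 (1.29%) were called in the pairwise fit and 499 had an unadjusted limma p under 0.05 without pair 2. The genes named by rule were chosen on these same arrays, so counts among them are no separate support. Of the 12 largest negative differences, 5 were called in the pairwise fit and 4 had an unadjusted p under 0.05 without pair 2. Of the 12 largest positive differences these numbers were 8 and 10. The positive ones not yet described were LURAP1L, at 1.70, and the tubulin gene TUBE1, at 1.37.

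BHLHE40, a repressor of the circadian clock, was 9.42, 9.64 and 9.67 with CsA and 8.44, 8.85 and 8.80 in controls. The groups did not overlap, and the difference was 0.88 ± 0.16 (limma adjusted p = 0.1, 0.00678 in the pairwise fit and 0.289 without the block). Its relative BHLHE41 was higher by 0.45, 0.61 and 0.69. The clock list as a whole was higher in 10 of 16 cases, with a median of 0.18, and PER2 and CLOCK were at -0.41 and -0.23.

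Cytosolic heat shock proteins, which fold proteins outside the ER, were lower in 21 of 22 cases, 16 in all 3 pairs, with a median of -0.23, and 6 had an unadjusted p under 0.05 downwards. DNAJA1 was 11.24, 10.997 and 11.63 with CsA and 11.77, 11.78 and 12.15 in controls. It was lower without overlap, at -0.61 ± 0.18 (limma adjusted p = 0.311, 0.0457 in the pairwise fit). DNAJB1, CHORDC1 and HSPH1 were at -0.51, -0.47 and -0.33. Proteasome subunits were lower in 26 of 27 cases and in all 3 pairs in 23, but by small amounts, with a median of -0.14 and PSMD1 at -0.28. Of the 27 subunits, 1 had an unadjusted p under 0.05 downwards, close to the share of all genes, 4.69%. Respiratory chain subunits were lower in 20 of 26 cases with a median of -0.08, with the complex I subunit NDUFS3 at -0.30.

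Lipid and redox genes had smaller differences. Fatty acid synthesis genes were higher in 8 of 10 cases with a median of 0.25, among them SREBF1 at 0.51, ME1 at 0.37 and SCD at 0.32. Cholesterol synthesis genes were higher in 8 of 19 cases with a median of -0.03, and NSDHL was at -0.50. The targets of NRF2, the oxidant-responsive factor, were higher in 14 of 20 cases with a median of 0.12. SLC7A11 belongs to that list as well and AKR1C1, at -0.91, was its lowest member. MAFG, SQSTM1 and TXNRD1 were at 0.32, 0.28 and 0.28, and HMOX1, NQO1 and GCLM at -0.04, 0.09 and 0.02. Hypoxia targets were higher in 16 of 19 cases with a median of 0.15, and autophagy and lysosome genes in 17 of 23 with a median of 0.15, led by MAP1LC3B at 0.40 and ATG12 at 0.32. The metallothionein list was lower in 10 of 10 cases, none with an unadjusted p under 0.05.

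Tubular injury markers were higher in 10 of 16 cases, with a median of 0.04. HAVCR1, the injury marker KIM-1, was 11.16, 10.96 and 11.04 with CsA and 11.08, 10.52 and 10.72 in controls. The ranges overlapped, and the difference was 0.28 ± 0.14 (limma adjusted p = 0.561, 0.177 in the pairwise fit). CLU was 12.67, 12.64 and 11.68 with CsA and 12.87, 12.92 and 11.60 in controls, a difference of -0.13 ± 0.18 (limma adjusted p = 0.893, 0.593 in the pairwise fit). LCN2 was 2.77, 2.92 and 10.87 with CsA and 2.76, 3.48 and 11.06 in controls, so the gap between replicate 3 and the other two exceeded the difference of -0.25 ± 0.63 (limma adjusted p = 0.959, 0.693 in the pairwise fit). p53 targets were higher in 8 of 18 cases with a median of -0.04. GADD45A, a growth arrest gene, was 8.98, 10.33 and 10.37 with CsA and 8.43, 8.78 and 9.18 in controls, higher by 1.10 ± 0.22 (limma adjusted p = 0.122, 0.0341 in the pairwise fit). TP53I3 and TIGAR were at -0.48 and -0.22. The proximal tubule markers tested were higher on average in 6 of 6 cases, 3 of them in all 3 pairs, by a median of 0.08. None of these markers had an unadjusted p under 0.05. The epithelial and mesenchymal list had a median of 0.07. Its cadherin gene CDH1 was higher by 0.66 on average (limma adjusted p = 0.237, 0.0903 in the pairwise fit). The CDH1 pairs differed by 0.57, 0.35 and 1.06, and its control 3 lay below the filter level of 4, at 3.05.

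The remaining lists had medians from -0.10 to 0.10, against -0.01 over all genes. BCL2 and death receptor genes had a median of -0.03, with BAX at -0.38 and PMAIP1 at 0.52. Glycolysis genes had a median of -0.10, with PGAM1 at -0.25 and the glucose transporter SLC2A3 at 0.64. Type I interferon genes had a median of -0.05. Their member OAS3 was lower by 0.66, 0.62 and 0.37 (limma adjusted p = 0.316, 0.0336 in the pairwise fit). Chemokines and cytokines had a median of -0.02. Immediate early genes had 0.03, with MAFF at 0.50 and KLF4 at 0.84. TGF-beta genes had 0.10, with PMEPA1 at 0.60, and matrix and integrin genes had 0.05, with LAMB1 at 0.45.

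Pair 2 differed from pairs 1 and 3 in how large its differences were. Over genes, within-pair differences had an SD of 0.364 in pair 2, against 0.264 and 0.299 in pairs 1 and 3. Genes at least 1 unit higher numbered 134 in pair 2, 38 in pair 1 and 50 in pair 3, and genes at least 1 unit lower numbered 69, 10 and 36. Across the 10717 genes, which share arrays and normalization and are not independent, Pearson's correlation was 0.519 between pairs 1 and 2, 0.338 between pairs 1 and 3, and 0.313 between pairs 2 and 3. The sign was shared by 68.1% of genes in pairs 1 and 2, by 62.3% in pairs 1 and 3 and by 60.1% in pairs 2 and 3. The gap between replicates 2 and 1 was wider with CsA than in the controls for several lists, of which 3 are given as examples. The median of the stress transcription factors was 0.14 higher in control 2 than in control 1 and 0.59 higher in CsA 2 than in CsA 1. For the serine, asparagine and one-carbon enzymes these values were -0.05 and 0.44, and for DNA replication -0.10 and -0.48. For the ER chaperones they were -0.07 and -0.01, a narrower gap with CsA.

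The list medians show where pair 2 stood apart. Stress transcription factors were at 1.17 in pair 2 against 0.51 and 0.52 in pairs 1 and 3. Cytosolic synthetases were at 0.58 against 0.19 and 0.05, and amino acid transporters at 0.49 against 0.04 and 0.03. Ribosome biogenesis genes were at 0.18 in pair 2 and at -0.08 and -0.25 in the others, with 17 of 23 genes positive in pair 2 against 8 and 2. ER chaperones, translocon, proteasome and heat shock lists had no such gap, with proteasome medians of -0.12, -0.14 and -0.13. One value per pair allows no test of a pair.

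**Figure D3:**
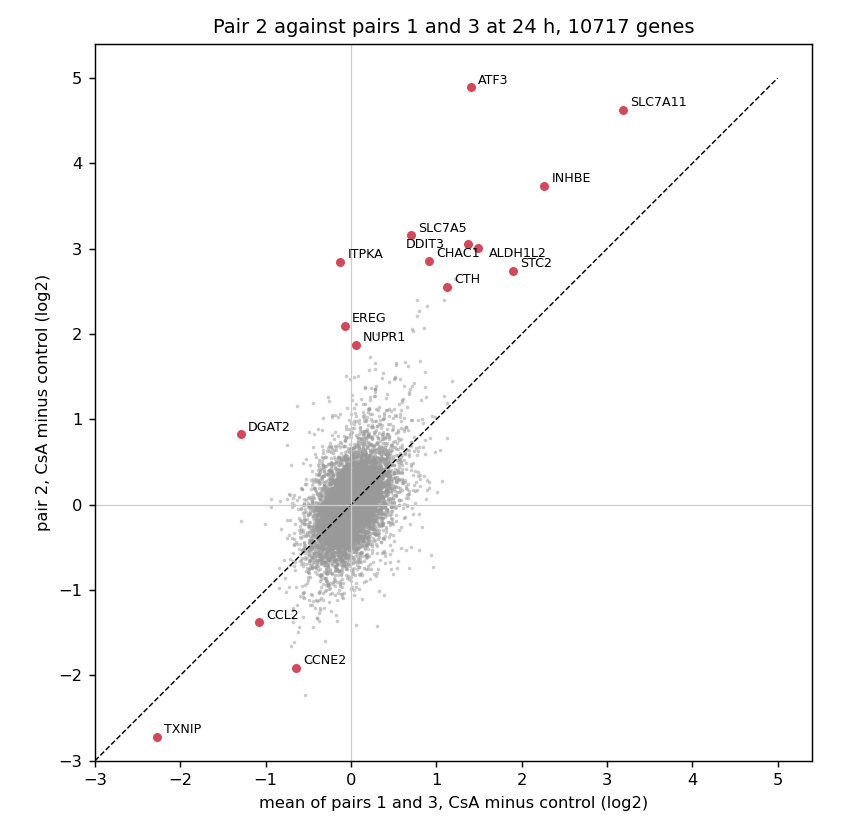
Within-pair difference of pair 2 (vertical axis, log2) against the mean of pairs 1 and 3 (horizontal axis, log2), one point per gene for 10717 genes, with the dashed line marking equal values. ATF3 at 4.89 against 1.40 and SLC7A5 at 3.16 against 0.70 lie far above the line, whereas TXNIP, at -2.72 in pair 2, lies close to it.

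Genes were counted against the mean of the other pairs for pair 2 only, so pairs 1 and 3 have no such count. Of 10717 genes, 83 were at least 1 unit above the mean of pairs 1 and 3 and 40 at least 1 unit below. The 8 furthest above were ATF3, ITPKA, SLC7A5, EREG, DGAT2, CHAC1, NUPR1 and DHODH, by 3.49 for ATF3 down to 1.79 for DHODH. NUPR1, a stress-induced chromatin factor, was 3.96, 5.66 and 3.86 with CsA and 3.86, 3.79 and 3.85 in controls. It was above the filter level of 4 on the CsA array of pair 2 alone. ITPKA, an inositol trisphosphate kinase, was 4.97, 7.58 and 5.21 with CsA and 4.74, 4.73 and 5.69 in controls. Its pairs differed by 0.23, 2.85 and -0.48. EREG, an EGF receptor ligand, was 8.44, 10.36 and 10.79 with CsA and 8.01, 8.27 and 11.35 in controls, so that replicate 3 was high in both groups. The 8 furthest below were NEURL1B, PCNX3, LINC02532, NMRK1, CGN, TMT1A, TIAM2 and ZBED2, by -1.72 for NEURL1B to -1.38 for ZBED2.

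Pairs 1 and 2 shared a sign in 68.1% of genes and pairs 1 and 3 in 62.3%, so pair 3 stood alone more often than pair 2. Pair 2 had the opposite sign to both other pairs in 1827 of 10717 genes, 937 of them higher in pairs 1 and 3 and 890 lower. By the mean of pairs 1 and 3 the largest of the first kind were PCNX3, NMRK1, NLRC5, CRACD, SLC60A1 and DDX25. NMRK1, a nicotinamide riboside kinase, was 5.70, 4.76 and 4.94 with CsA and 4.87, 5.35 and 3.90 in controls. The largest of the second kind were DGAT2, GPRIN1, SOX9, RNASEH1-DT, SWSAP1 and ZIK1. DGAT2, the last enzyme of triglyceride synthesis, was 6.07, 6.78 and 5.26 with CsA and 6.45, 5.95 and 7.47 in controls. Its pairs differed by -0.38, 0.82 and -2.21 at 24 hours, while all 3 pairs were lower at 12 and at 48 hours, with means of -1.54 and -1.78. SOX9, a transcription factor of tubule repair, was 4.64, 4.63 and 7.81 with CsA and 5.92, 4.59 and 8.20 in controls. None of these genes passed the main test.

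The effect of CsA at 24 hours was set against that at the other times, which use other arrays. The difference between the effects at 24 and 12 hours passed the test in 0 of 10717 genes (0%), with 263 at an unadjusted p under 0.05 in limma, and in 0 without the block, with 87. Between 24 and 48 hours 5 genes passed (0.0467%). In the pairwise fit 1021 genes passed for 24 against 48 hours and 0 for 24 against 12 hours. For the 5 genes of the main test the effect at 24 hours was close to 0, apart from ALG14. NETO1, a receptor accessory protein, was at 0.19 at 24 hours and -1.52 at 48 hours, a difference of 1.72 ± 0.26 (limma adjusted p = 0.0352). IL20RB, a cytokine receptor chain, was at 0.11 and 1.84, a difference of -1.73 ± 0.21 (limma adjusted p = 0.00859), and ALG14, a glycosylation enzyme, at -0.59 and 0.86, a difference of -1.46 ± 0.20 (limma adjusted p = 0.0187). A1BG and EML2-AS1 differed by -1.21 and -1.16. IL20RB and EML2-AS1 were below the filter level of 4 on all 6 arrays of 24 hours, with values of 3.45 to 3.82 and of 2.74 to 2.83. They entered the test through another time, so their differences at 24 hours are those of levels under the filter. SLC7A11 differed by 3.16 from the effect at 48 hours (limma adjusted p = 0.118) and by 3.17 from that at 12 hours (limma adjusted p = 1).

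**Figure D4:**
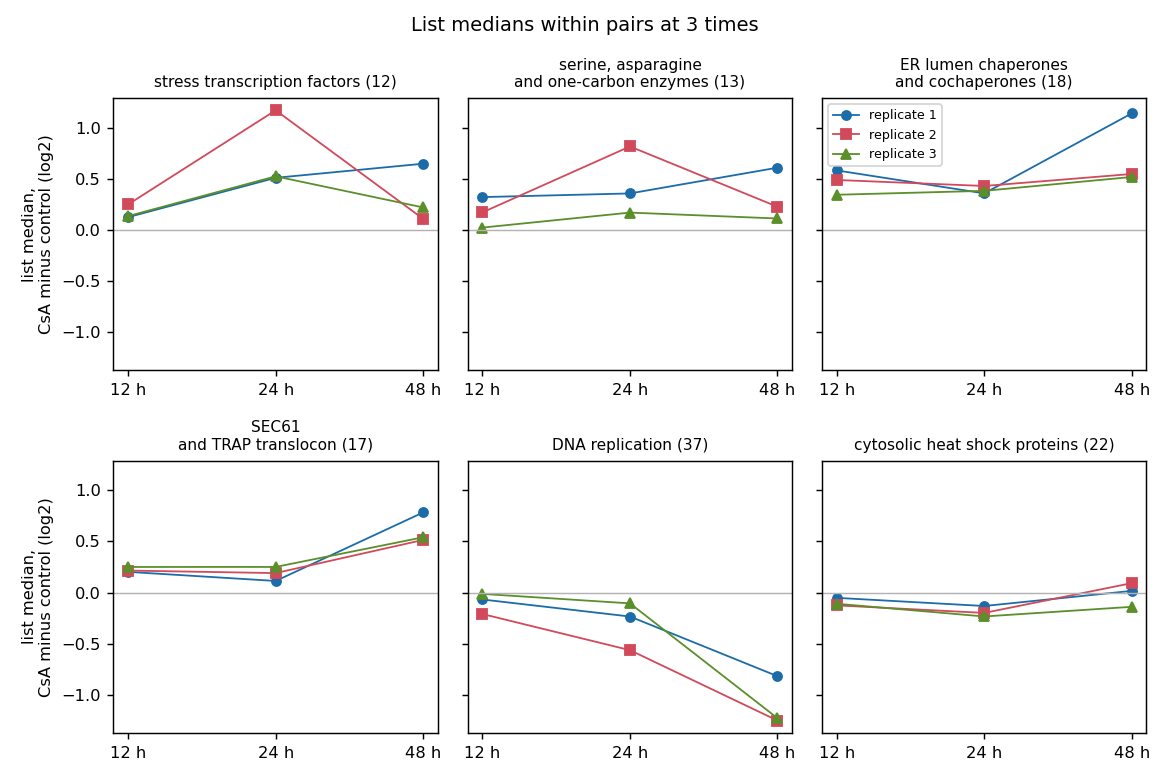
Median difference (CsA minus control, log2) of 6 gene lists at 12, 24 and 48 hours in replicates 1, 2 and 3, with the number of tested genes in brackets and times spaced evenly. For the stress transcription factors replicate 2 is at 0.25, 1.17 and 0.11, and for DNA replication at -0.21, -0.56 and -1.25.

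Side by side over the times, the stress transcription factors had medians of 0.15, 0.72 and 0.32 and the secreted factors 0.01, 0.36 and 0.05. The ER chaperones had 0.50, 0.44 and 0.69, the translocon genes 0.23, 0.20 and 0.61, and DNA replication -0.11, -0.28 and -1.13. Across genes, the differences of pair 2 at 24 hours correlated with those of the 48 hour pairs 1, 2 and 3 at 0.394, 0.366 and 0.283. For pair 1 these values were 0.123, 0.248 and 0.0962, and for pair 3 they were 0.128, 0.159 and 0.124. The genes share arrays and are not independent, so these values describe the arrays and carry no p.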

How the data were processed

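RNA of 18 HK-2 cultures was labelled as biotinylated cRNA and hybridised to arrays. The deposited values are taken to be log2 values, since their range fits that scale, and GCRMA is named in the submitters' processing notes. The sources used here do not say which arrays the authors normalized together. Of 54675 probe sets, 41091 had 1 gene symbol in the platform annotation, 1801 had several, 11721 had none and 62 were controls. The brightest probe set per gene over all arrays was kept where its highest group mean reached 4, which left 10717 genes. All 18 arrays were fitted with limma 3.58.1 in R 4.3.3, with a term per group and the replicate number as a block (10 residual degrees of freedom), a two-sided moderated test and Benjamini-Hochberg adjustment over all genes. The steps were tested on simulated data. Same-numbered arrays of 24 hours deviated together, with correlations of 0.785, 0.754 and 0.906, and 18 of 18 arrays correlated best with an array of their own number, so the numbers were taken to pair the samples; the labels give no shared batch. Alternatives were a fit without the block, a block on the 24 hour arrays alone, a block per pair (6 residual degrees of freedom), an intensity trend, other filters, normalizations and probe set rules, and leaving out pairs or arrays. Tables and plots used Python 3.11.15, pandas 2.3.3, numpy 2.4.6 and matplotlib 3.10.9. Promoters are those of RefSeq (GRCh38.p14).

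The comparison, the members and the 45 gene lists were chosen with earlier results of these data known. The text names the 12 largest mean differences each way with 1 sign in all 3 pairs and an unadjusted p under 0.05, up to 3 genes per list with the smallest p in the direction of the list median, 13 chosen genes, 8 genes each way for pair 2, 6 each way with pair 2 opposite, and those past a test between times. Other genes were named after their values were seen, as list members. Some genes share probe sequence with close relatives and were not separated further.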

Additional observations from a re-analysis of the deposited data

Results flagged for a closer look

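The effect of CsA differed between 24 and 48 hours in 5 genes, by the test of that difference itself. The effect at 24 hours minus that at 48 hours was 1.72 for NETO1, -1.73 for IL20RB, -1.46 for ALG14, -1.21 for A1BG and -1.16 for EML2-AS1. IL20RB and EML2-AS1 lay below the filter level of 4 on every array of 24 hours and entered the test through another time, so these 2 differences set levels under the filter at 24 hours against those of 48 hours. EML2-AS1 is named for the antisense strand of EML2, and the strand that its probe set reads was not checked.

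Probe sets with no gene symbol were not part of the comparison. Of 1668 of them past the same filter, 3 passed the same limma test at 24 hours, with differences of 0.56, 1.41 and -1.08, and 117 had an unadjusted p under 0.05.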

How the results depend on the processing

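The number of genes past the test at 24 hours was 1. It was 0 with no replicate block, 0 with the block on the 24 hour arrays alone, 138 with the block per pair, 4 with no level filter and 0 with the mean of a gene's probe sets. Leaving out a pair or an array gave 0 to 3. The difference from 12 hours was 0 genes and gave 0 to 1 when a pair or an array was left out, with 1 without pair 2. The difference from 48 hours was 5 genes, 1021 with the block per pair, 3 with no level filter, and 0 to 6 when a pair or an array was left out. The cause of these shifts was not tested. RCAN1 changed sign with the mean of its probe sets, at 0.0112. Leaving out a pair or an array changed the sign at 24 hours of 16 named genes, none of which passed the main test of that time. CGN ran from -0.94 to 0.0645, DGAT2 from -1.29 to 0.22, DHODH from -0.64 to 0.43, EML2-AS1 from -0.0032 to 0.0587, EREG from -0.0697 to 1.26, IFI6 from -0.18 to 0.0208, IFIT1 from -0.45 to 0.17, IL20RB from -0.0128 to 0.23, ITPKA from -0.13 to 1.54, LCN2 from -0.61 to 0.30, MTF1 from -0.22 to 0.0208, NEURL1B from -0.64 to 0.30, PCNX3 from -0.0363 to 0.97, RNASEH1-DT from -0.75 to 0.17, TIAM2 from -0.11 to 0.68 and TMT1A from -0.64 to 0.39. Array number and the signal near background limit the precision.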
